A study of Homo sapiens with 12 samples.

Results

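The kinase MAP2K4 was examined together with 9 other genes of the JNK and p38 stress-kinase pathway: its fellow kinases MAP2K7, MAP2K3 and MAP2K6, the JNK genes MAPK8 and MAPK9, the p38 genes MAPK14 and MAPK11, and the AP-1 genes JUN and JUND. These 10 of the 60664 genes in the deposited table were found by symbol. They were chosen by the TPM of MAP2K4, which was higher with si-CENPU than with si-NC in Huh-7 and not in MHCC-97H, so the responses of MAP2K4 are given as a description without a test. Of the 10 genes, 9 averaged at least 1 TPM over the 12 libraries and entered the fit of 11088 genes, and MAP2K6 did not. MAPK8, MAPK9 and JUN averaged under 1 TPM over the Huh-7 libraries and entered through MHCC-97H, and MAP2K4 entered through Huh-7 si-CENPU.

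RNA was sequenced from Huh-7, a hepatoma line that secretes many liver plasma proteins, and from MHCC-97H, a hepatocellular carcinoma line. Cells of each line were transfected with a small interfering RNA against CENPU, an inner kinetochore subunit (si-CENPU, genotype given as CENPU knockdown), or with the control si-NC (genotype given as WT). The 4 groups held 3 libraries each, and si-NC libraries are called controls and si-CENPU libraries treated. No label states whether the 3 libraries of a group are separate cultures, and a p-value therefore covers just their spread, which may be technical. Values are TPM, a transcript abundance scaled for transcript length and library total, which puts genes on a common scale, but the sequencing depth is unknown.

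Stress such as ultraviolet light, osmotic shock or inflammatory cytokines activates MAP3 kinases, which phosphorylate the MAP2 kinases. MAP2K4 and MAP2K7 phosphorylate the JNKs, MAP2K3 and MAP2K6 phosphorylate the p38 kinases, and MAP2K4 can act on both. JNK phosphorylates JUN, which with JUND, FOS and ATF proteins forms the AP-1 family of transcription factors, and this cascade is known in liver for its part in cell death, regeneration and tumour growth. The activity of these kinases is set by phosphorylation, which RNA levels do not measure.

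Between 18639 and 20900 genes per library were listed above 0. CENPU itself was listed at 0.56, 0.84 and 0.53 TPM in the Huh-7 controls and at 0.17, 0.11 and 0.45 TPM in treated Huh-7. MHCC-97H had 1.17, 0.83 and 0.89 TPM in controls and 0.22, 0.45 and 0.24 TPM in treated libraries, and the groups did not overlap in either line. Of the genes in the fit, 3.86% lay wholly lower with si-CENPU in Huh-7 and 3.76% in MHCC-97H. CENPU averaged 0.538 TPM over the 12 libraries, so it did not enter the fit, and values this low may be poor estimates. The first Huh-7 control (si-NC replicate 1) differed most from its line, with a mean correlation to the other Huh-7 libraries of 0.965 against 0.975 to 0.978 for those. It had 1.56% of its TPM in genes encoded by mitochondria, against 2.28% to 3.5% in the other Huh-7 libraries and 4.41% to 6.3% in MHCC-97H. Libraries also deviated from their line with transcript GC content, with a Spearman rho between -0.516 and 0.456. Both extremes were MHCC-97H controls, the lowest si-NC replicate 1 and the highest si-NC replicate 3. Of 12 hepatocyte and hepatoma markers, all 12 averaged at least 1 TPM in Huh-7 but only 3 did in MHCC-97H, namely KRT8, KRT18 and EPCAM, and APOB was listed at 0 there. Of 5 endothelial markers, 0 reached 1 TPM in either line. Of 7 fibroblast or stellate markers 1 reached 1 TPM in each line, and of 5 leukocyte markers 3 did in Huh-7 and 2 in MHCC-97H.

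Upstream sequence is shown for MAP2K4, on which the choice of genes rests, and for the members with a match to an element that JUN-family proteins are known to bind. All are read 5′ to 3′ on the gene's strand from RefSeq on GRCh38.p14, with the motif in capitals. MAP2K4 is shown at chr17:12020627-12020823 (plus strand), the 197 bases before its start in GENCODE, and JUND at chr19:18281623-18281872 (minus strand), the 250 bases before its start. For JUN, chr1:58784096-58784125 (minus strand), and MAP2K3, chr17:21284659-21284688 (plus strand), only 30 bases around the motif are shown, because GENCODE starts both genes further upstream than RefSeq.
MAP2K4: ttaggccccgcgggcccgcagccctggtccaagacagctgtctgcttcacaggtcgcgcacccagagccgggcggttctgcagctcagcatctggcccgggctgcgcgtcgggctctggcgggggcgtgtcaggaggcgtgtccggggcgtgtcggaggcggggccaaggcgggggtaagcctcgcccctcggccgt
JUND: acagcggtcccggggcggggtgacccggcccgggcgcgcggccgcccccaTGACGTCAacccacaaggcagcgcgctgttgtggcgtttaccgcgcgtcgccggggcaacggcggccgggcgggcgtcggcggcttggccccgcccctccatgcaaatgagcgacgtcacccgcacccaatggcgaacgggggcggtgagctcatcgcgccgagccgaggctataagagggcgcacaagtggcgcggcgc
JUN: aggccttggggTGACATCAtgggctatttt
MAP2K3: ggggcggggccTGAGTCAgcgcagttcggc
The motifs searched on both strands were the cyclic AMP response element TGACGTCA, the variant TGACATCA (reverse complement TGATGTCA) and the AP-1 element TGACTCA (reverse complement TGAGTCA), and no motif is contained in another. All 10 genes matched the RefSeq table, with 14 windows of 250 bases before a start. JUND held the first element at position -200 from its RefSeq start, JUN the second at -67 and MAP2K3 the third at -41, each counted to the motif's first base. Over 35116 windows of this length, 1.65% held the first element, 2.37% the second and 4.2% the third, and 8.03% held any of them. MAP2K4 and the other 6 genes had no match in these windows, which says only that these letters are not there.

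MAP2K4 (ENSG00000065559; GRCh38 chromosome 17, 12020824 to 12143830, plus strand) encodes the kinase that can act on both JNK and p38. In Huh-7 it stood at 0.42, 1.08 and 0.57 TPM in controls and at 4.33, 5.12 and 4.86 TPM in treated libraries. MHCC-97H had 1.25, 1.09 and 0.72 TPM in controls and 0.76, 0.55 and 0.55 TPM in treated libraries. The 3 libraries of Huh-7 si-CENPU were thus the highest of the 12, and the lowest of them, at 4.33 TPM, lay above the highest of the others, at 1.25 TPM. From lowest to highest mean the groups were MHCC-97H si-CENPU, Huh-7 si-NC, MHCC-97H si-NC and Huh-7 si-CENPU, and the first 3 overlapped their neighbours in that order while Huh-7 si-CENPU stood apart.

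The mean of MAP2K4 was 0.69 ± 0.346 TPM in the Huh-7 controls and 4.77 ± 0.403 TPM in treated Huh-7 (SD, n = 3), a 6.91-fold ratio of means. In MHCC-97H the means were 1.02 ± 0.272 TPM and 0.62 ± 0.121 TPM. On the scale log2(TPM + 1) the difference between si-CENPU and si-NC was 1.79 (SE 0.168) in Huh-7 and -0.31 (SE 0.168) in MHCC-97H. The response was 2.10 smaller in MHCC-97H, a difference of -2.10 (SE 0.237). These are the values that chose the gene. Of the 11088 genes in the fit, 17 had a larger positive difference in Huh-7, where 5% of genes lay below -0.30 and 5% above 0.37. The added 1 TPM compresses low genes, and with 0.1 in its place the Huh-7 difference was 2.71. Without Huh-7 si-NC replicate 1 it was 1.67, and after correction for transcript GC content 1.76. In bulk RNA, more cells with the transcript and more transcript per cell cannot be told apart.

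**Figure D1:**
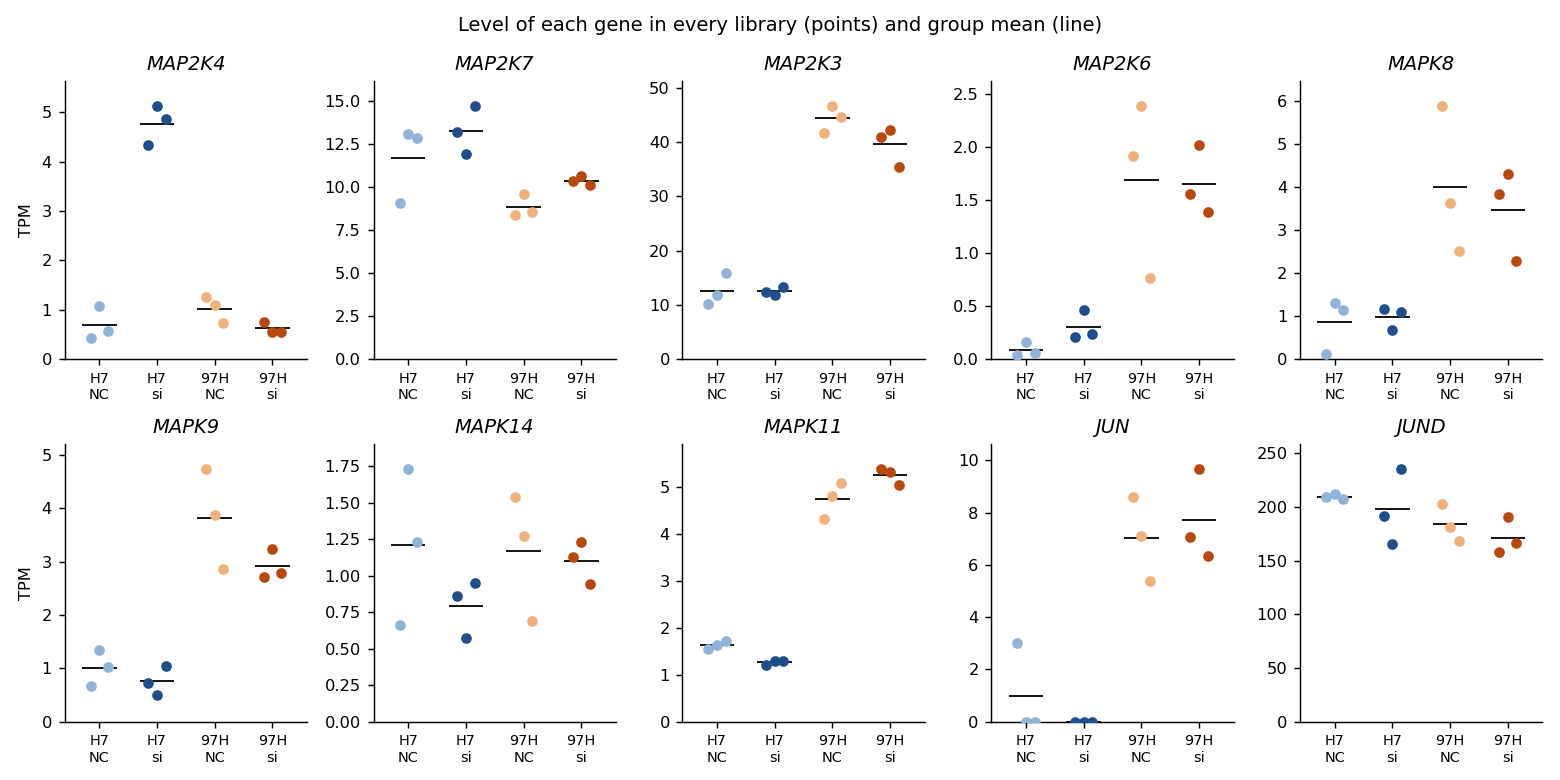
Level of each of the 10 genes in TPM (linear axis from 0, one scale per gene) in the 12 libraries; H7 is Huh-7, 97H is MHCC-97H, NC is si-NC and si is si-CENPU, points are libraries and lines group means. MAP2K4 stands at 4.33 to 5.12 TPM in treated Huh-7 and at 0.42 to 1.25 TPM in the other 3 groups, while MAP2K3, MAP2K6, MAPK8, MAPK9, MAPK11 and JUN separate by line.

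The gene's surroundings were listed near 0. GENCODE places 4 genes inside or across MAP2K4, the pseudogenes AC005410.1 and AC005244.1, the small nuclear RNA pseudogene RNU11-2P and the microRNA gene MIR744, and all 4 were listed at 0 in the 12 libraries. MAP2K4P1, a processed copy on chromosome X, was listed at no more than 0.02 TPM in any library. Of the 3 protein-coding genes within 500 kb, ZNF18 averaged 0.36 TPM in the Huh-7 controls and 0.343 TPM in treated Huh-7, SHISA6 was listed at 0 and DNAH9 at no more than 0.04 TPM. The strand setting of the counting is not given in the sources used here, and reads from AC005410.1 and RNU11-2P, on the opposite strand, then cannot be told apart from those of MAP2K4.

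MAP2K7 (ENSG00000076984; chromosome 19, 7903843 to 7914478, plus strand), the other JNK activator, was the more abundant of the pair in every library. It stood at 9.09, 13.1 and 12.8 TPM in the Huh-7 controls, at 13.2, 11.9 and 14.7 TPM in treated Huh-7, at 8.39, 9.61 and 8.56 TPM in the MHCC-97H controls and at 10.4, 10.7 and 10.1 TPM in treated MHCC-97H. The Huh-7 groups overlapped, and the 3 MHCC-97H si-CENPU libraries lay above the 3 with si-NC. The differences were 0.18 (SE 0.136; 95% interval -0.12 to 0.48) in Huh-7 and 0.21 (SE 0.136; -0.09 to 0.51) in MHCC-97H, both with a limma adjusted p of 1. Without Huh-7 si-NC replicate 1 the Huh-7 difference of MAP2K7 was 0.03. An antisense gene inside MAP2K7, AC010336.4, was listed at no more than 0.52 TPM, and its reads cannot be told apart from those of MAP2K7 without the strand setting.

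MAP2K4 made up 4.42%, 7.63% and 4.26% of the summed TPM of MAP2K4 and MAP2K7 in Huh-7 si-NC and 24.8%, 30% and 24.9% in Huh-7 si-CENPU. The shares were 13%, 10.2% and 7.76% in MHCC-97H si-NC and 6.84%, 4.91% and 5.17% in MHCC-97H si-CENPU. These shares rest on the values that chose MAP2K4, and MAP2K7 stayed the larger part throughout. The summed level of both was 12.4 ± 2.49 TPM in the Huh-7 controls and 18 ± 1.33 TPM in treated Huh-7 (SD, n = 3), and 9.87 ± 0.738 and 11 ± 0.31 TPM in MHCC-97H.

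MAP2K3 (ENSG00000034152; chromosome 17, 21284672 to 21315240, plus strand), an activator of p38, was the most abundant MAP2 kinase of the 4 in MHCC-97H. It was listed at 10.1, 11.8 and 15.9 TPM in the Huh-7 controls and at 12.3, 11.8 and 13.4 TPM in treated Huh-7. MHCC-97H had 41.8, 46.6 and 44.7 TPM in controls and 41, 42.3 and 35.4 TPM in treated libraries. All MHCC-97H libraries lay above all Huh-7 libraries, and the si-NC and si-CENPU groups overlapped within each line, with differences of 0.01 (SE 0.142; 95% interval -0.30 to 0.32) and -0.16 (SE 0.142; -0.47 to 0.15).

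MAP2K6 (ENSG00000108984; chromosome 17, 69414698 to 69553861, plus strand), the second p38 activator, averaged 0.931 TPM over the 12 libraries. It stood at 0.04, 0.16 and 0.06 TPM in the Huh-7 controls, 0.21, 0.46 and 0.24 TPM in treated Huh-7, 1.91, 2.38 and 0.76 TPM in the MHCC-97H controls and 1.55, 2.02 and 1.38 TPM in treated MHCC-97H. The Huh-7 groups did not overlap, but all 6 values were under 0.5 TPM. In a fit without a filter on low values the Huh-7 difference was 0.26 (SE 0.221, limma adjusted p = 1). MAP2K3 made up at least 95.1% of the summed TPM of MAP2K3 and MAP2K6 in every library.

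Both JNK genes were near 1 TPM in Huh-7 and higher in MHCC-97H. MAPK8 (JNK1; ENSG00000107643; chromosome 10, 48306639 to 48439360, plus strand) stood at 0.11, 1.29 and 1.15 TPM in the Huh-7 controls and at 1.16, 0.68 and 1.09 TPM in treated Huh-7. In MHCC-97H it was listed at 5.87, 3.62 and 2.52 TPM in controls and at 3.84, 4.29 and 2.28 TPM in treated libraries. The groups overlapped within each line and the lines did not overlap, and the lowest value was in Huh-7 si-NC replicate 1. The response was 0.16 (SE 0.317; 95% interval -0.54 to 0.86) in Huh-7, -0.18 without that library, and -0.14 (SE 0.317; -0.84 to 0.56) in MHCC-97H.

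MAPK9 (JNK2; ENSG00000050748; chromosome 5, 180233143 to 180292099, minus strand) was listed at 0.67, 1.34 and 1.02 TPM in the Huh-7 controls and at 0.72, 0.51 and 1.05 TPM in treated Huh-7. MHCC-97H had 4.74, 3.87 and 2.86 TPM in controls and 2.72, 3.24 and 2.79 TPM in treated libraries. Again the groups overlapped within each line and the lines stood apart. The responses were -0.19 (SE 0.186; 95% interval -0.60 to 0.22) and -0.28 (SE 0.186; -0.69 to 0.13). For MAPK9 in Huh-7 the value was -0.32 without si-NC replicate 1, -0.31 without si-CENPU replicate 3, -0.07 without si-NC replicate 2 and -0.08 without si-CENPU replicate 2. MAPK10 (JNK3), known as the neuronal JNK, was listed at no more than 0.13 TPM in any library. The 3 JNK genes summed to 1.86 ± 0.963 TPM in the Huh-7 controls and 1.78 ± 0.448 TPM in treated Huh-7, against 7.89 ± 2.67 and 6.47 ± 1.23 TPM in MHCC-97H (SD, n = 3).

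Of the p38 genes, MAPK14 (p38 alpha; ENSG00000112062; chromosome 6, 36027677 to 36111236, plus strand), usually the main p38 of most tissues, overlapped between the lines at a low level. It stood at 0.66, 1.73 and 1.23 TPM in the Huh-7 controls, 0.86, 0.57 and 0.95 TPM in treated Huh-7, 1.54, 1.27 and 0.69 TPM in the MHCC-97H controls and 1.13, 1.23 and 0.94 TPM in treated MHCC-97H. All 4 groups overlapped their neighbours in order of level. The responses were -0.28 (SE 0.207; 95% interval -0.73 to 0.18) in Huh-7 and -0.03 (SE 0.207; -0.48 to 0.43) in MHCC-97H. The Huh-7 response of MAPK14 was -0.47 without si-NC replicate 1, -0.11 without si-NC replicate 2 and -0.18 without si-CENPU replicate 2.

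MAPK11 (p38 beta; ENSG00000185386; chromosome 22, 50263713 to 50270767, minus strand) was listed at 1.55, 1.64 and 1.72 TPM in the Huh-7 controls and at 1.22, 1.3 and 1.3 TPM in treated Huh-7, so that all 3 treated libraries lay below the controls. MHCC-97H had 4.33, 4.82 and 5.09 TPM in controls and 5.39, 5.32 and 5.05 TPM in treated libraries, where the groups overlapped. The Huh-7 difference of -0.21 (SE 0.104, n = 3) had a limma p of 0.0642 and an adjusted p of 1. The MHCC-97H difference was 0.12 (SE 0.104). The difference of the responses, 0.34 (SE 0.147; 95% interval 0.01 to 0.66), had a limma p of 0.0423 and an adjusted p of 0.999, and did not pass the test over all genes.

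Most of the summed p38 TPM came from a gene outside the 10. Its transcript has 65.3% GC against 46.3% for MAPK14, and the part of GC content in these shares was not tested. MAPK12 (p38 gamma), known mainly from muscle, made up 85.8% to 96.1% of the summed TPM of the 4 p38 genes in every library, with 53.2 ± 2.29 TPM in the Huh-7 controls and 39 ± 3.1 TPM in the MHCC-97H controls (SD, n = 3). MAPK11 made up 2.02% to 2.95% of that sum in Huh-7 libraries and 10.1% to 11.2% in MHCC-97H libraries.

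**Figure D2:**
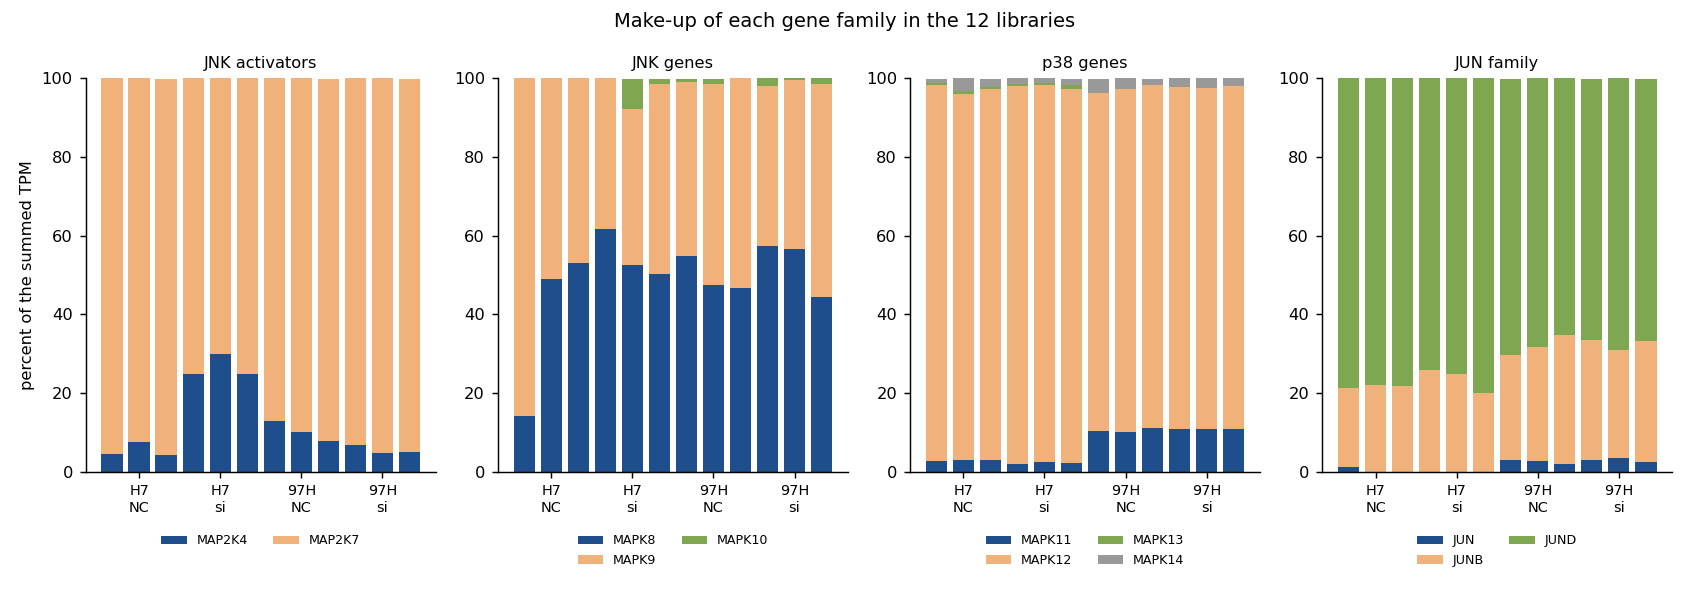
Share of each gene in the summed TPM of its family (percent, from 0 to 100) in the 12 libraries, 3 bars per group in replicate order; H7 is Huh-7, 97H is MHCC-97H, NC is si-NC and si is si-CENPU. MAP2K4 reaches 24.8% to 30% of the JNK activators in Huh-7 si-CENPU and at most 13% elsewhere, MAPK12 fills at least 85.8% of the p38 sum and JUND at least 65.2% of the JUN family.

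JUN (ENSG00000177606; chromosome 1, 58780788 to 58784327, minus strand), the founding member of AP-1 and the classic JNK substrate, was listed at 0 in 5 of the 6 Huh-7 libraries. Its Huh-7 si-NC values were 3, 0 and 0 TPM, the first from replicate 1, and with si-CENPU all 3 were 0. MHCC-97H had 8.61, 7.09 and 5.39 TPM in controls and 7.08, 9.67 and 6.35 TPM in treated libraries, which overlapped, with a difference of 0.12 (SE 0.438; 95% interval -0.85 to 1.08). The Huh-7 difference of -0.67 (SE 0.438) rested on 1 library and was 0.00 without it. Whether a listed 0 is an absent transcript or a failed estimate was not tested. MAPK3 (ERK1), a kinase that nearly all cells use, was also listed at 0 in 5 of the 6 Huh-7 libraries and at 0.28 TPM in the sixth.

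JUND (ENSG00000130522; chromosome 19, 18279760 to 18281622, minus strand), the AP-1 member known for steady expression in resting cells, was the most abundant of the 10 genes. It stood at 209, 212 and 207 TPM in the Huh-7 controls, 192, 166 and 235 TPM in treated Huh-7, 203, 182 and 169 TPM in the MHCC-97H controls and 158, 191 and 166 TPM in treated MHCC-97H. The responses were -0.10 (SE 0.123; 95% interval -0.37 to 0.17) in Huh-7 and -0.10 (SE 0.123; -0.38 to 0.17) in MHCC-97H, and groups overlapped within each line. JUND made up 65.2% to 80% of the summed TPM of JUN, JUNB and JUND, and JUN at most 3.51%.

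Set side by side, the responses to si-CENPU gave no call among the 8 tested members besides MAP2K4. A gene was called when its limma p, adjusted over all 11088 genes by the Benjamini-Hochberg method, was below 0.05. In Huh-7, 0.00902% of the genes were called (1 gene), and 0 of these 8 members. The unadjusted limma p was below 0.05 for 0 of these 8 members and for 4.57% of all genes. In MHCC-97H 0.00902% were also called, the single gene ADAM15, a metalloprotease named after its values were seen, and again 0 of the 8 members, and 0 of them had an unadjusted p below 0.05 against 3.42% of all genes. For the difference of the responses, 0.00902% were called (1 gene) and 0 of the 8 members, with 1, MAPK11, at an unadjusted p below 0.05, against 3.45% of all genes. The 1 gene called in the Huh-7 response and in the difference was MAP2K4, on which the choice was made. No test of it is read. The median of the 8 responses was -0.14 in Huh-7, where that of all genes was 0.01, and -0.07 in MHCC-97H, where it was -0.05. The difference of the responses uses the libraries of both, and the line comparison uses the same controls.

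Counted by overlap alone and without MAP2K4, whose Huh-7 values made the choice, 1 of the other 9 genes (MAP2K6) had all Huh-7 si-CENPU libraries above all si-NC libraries and 1 (MAPK11) had them all below, where 3.79% and 3.86% of all tested genes did, 7.65% in all. MAP2K6 is not itself among those tested genes. In MHCC-97H 1 of these 9 (MAP2K7) lay above and 0 below, against 3.19% and 3.76% of all tested genes, 6.95% in all.

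**Figure D3:**
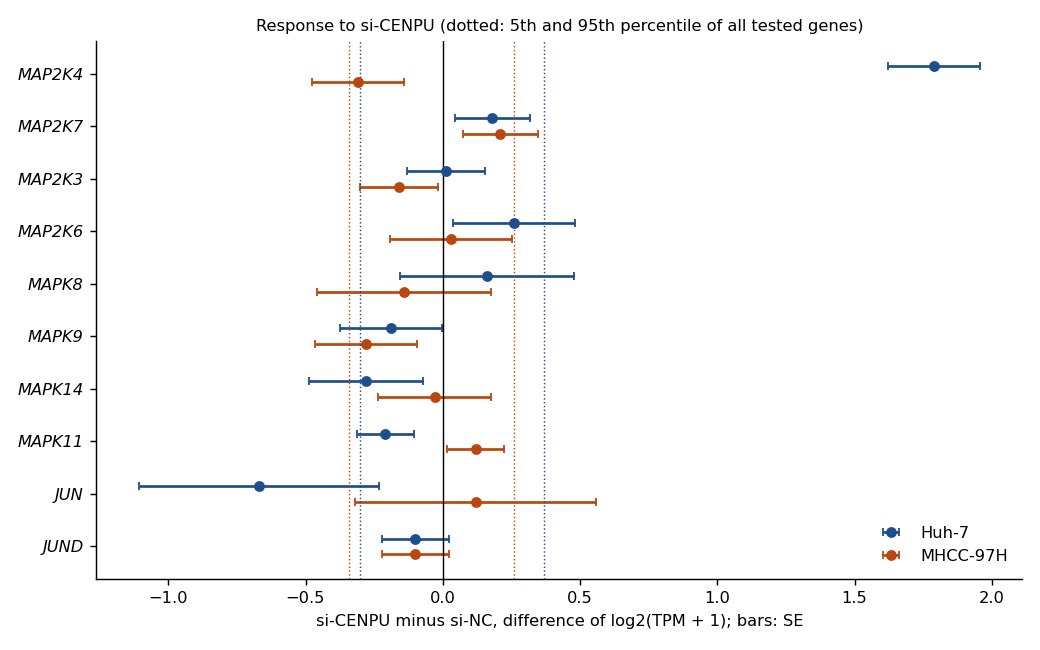
Difference between si-CENPU and si-NC in log2(TPM + 1) for each of the 10 genes in Huh-7 and MHCC-97H (points, with SE as bars; MAP2K6 from the fit without a filter), with the range holding all but the lowest 5% and highest 5% of tested genes dotted in the colour of each line. MAP2K4 in Huh-7 lies at 1.79 while the other genes lie between -0.67 and 0.26, and JUN has the widest bars.

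The lines themselves differed at most members. With si-NC, limma called 5 of the 8 members other than MAP2K4 higher in MHCC-97H and 1 lower, where 73.0% of all tested genes were called, 50.1% higher and 22.9% lower. The members' 6 of 8 is near this background, and MAPK8, MAPK9 and JUN could enter only through MHCC-97H. The scale also matters: the median gene was 0.49 higher in MHCC-97H on the deposited TPM scale. After trimmed-mean scaling it was -0.00, a value near 0 by design, because that scaling brings the middle genes of all libraries to a common level. With si-NC, 6 of the 10 genes had all MHCC-97H libraries above all Huh-7 libraries and 1 (JUND) had them all below, where 49.6% and 23.4% of all tested genes did. The 6 include MAP2K6, which was not tested. Of all calls, 68.6% were higher in MHCC-97H on the deposited scale, 48.7% after trimmed-mean scaling, 55.2% after quantile normalization and 51% after correction for transcript GC content.

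MAP2K3 was 3.53-fold higher in MHCC-97H by mean TPM, a difference of 1.76 (SE 0.142, limma adjusted p = 5.15e-07) that was 1.14 after trimmed-mean scaling. MAPK11 was 2.9-fold higher, a difference of 1.12 (SE 0.104, adjusted p = 1.79e-06) that was 0.65 after that scaling. For MAPK9 the ratio was 3.79-fold and the difference 1.26 (SE 0.186, adjusted p = 9.18e-05), and for MAPK8 4.71-fold and 1.45 (SE 0.317, adjusted p = 0.00157), which was 0.66 after GC correction. These low genes entered through MHCC-97H, and without a filter the adjusted p was 0.000296 for MAPK9 and 0.00483 for MAPK8. JUN differed by 2.32 (SE 0.438, limma adjusted p = 0.000577, and 0.00213 without a filter), with its Huh-7 values listed at 0 in 2 of 3 libraries, and no fold is given. These 5 genes were higher in MHCC-97H and called under every alternative run for them, which leaves out the minimum of 5 TPM for MAPK8, MAPK9, MAPK11 and JUN, with differences that ran from 0.57 for MAPK9 after GC correction to 4.48 for JUN with a pseudocount of 0.1.

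MAP2K7 was the called gene that was lower in MHCC-97H, by 0.35 on the log2 scale, a difference of -0.35 (SE 0.136, limma adjusted p = 0.0376) over groups that overlapped. It was -0.94 after trimmed-mean scaling. The adjusted p was 0.0597 without a filter on low values and up to 0.136 when a library was left out, and the call was lost without Huh-7 si-NC replicate 2 or 3, MHCC-97H si-NC replicate 1 or 3, or MHCC-97H si-CENPU replicate 1. JUND differed by -0.19 (SE 0.123, adjusted p = 0.189), although its si-NC groups did not overlap, and by -0.84 (adjusted p = 0.000242) after trimmed-mean scaling. MAPK14 differed by -0.02 (SE 0.207, adjusted p = 0.946; 95% interval -0.47 to 0.44), by -0.38 (adjusted p = 0.022) after quantile normalization and by -0.62 (adjusted p = 0.000439) after GC correction. MAP2K4 stood 0.27 higher in MHCC-97H si-NC, 0.02 lower after trimmed-mean scaling (-0.02) and -0.46 after GC correction. MAP2K6, in the fit without a filter, was 1.25 higher (SE 0.221, adjusted p = 0.0011).

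A wider list of 97 genes around the cascade, assembled by role, was examined in the same fit. Of its 70 tested genes, limma called 0 for the Huh-7 response, 0 for the MHCC-97H response and 0 for their difference, against 0.00902% of all genes each time. At an unadjusted p below 0.05 the counts were 5, 2 and 2 of 70 (HSPB1, IER2, MEF2C, DUSP22 and BATF3, then IER2 and DUSP4, then HSPB1 and MAP2K2; DUSP22 and BATF3 were named after their values were seen), beside 4.57%, 3.42% and 3.45% of all genes. The median response was 0.04 in Huh-7, and -0.07 in the other line.

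The smallest p in Huh-7 belonged to HSPB1, the small heat-shock protein phosphorylated downstream of p38. It was listed at 0, 0.19 and 0 TPM in controls and at 0.91, 1.05 and 0.43 TPM in treated libraries, a difference of 0.74 (SE 0.133) with a limma adjusted p of 0.309. That became 0.0414 with a pseudocount of 0.1 and 0.0259 without Huh-7 si-CENPU replicate 3, and values this near 0 may be poor estimates. IER2, an immediate-early gene, stood at 39.6, 45.7 and 47.3 TPM in controls and at 52.2, 51.2 and 53.8 TPM in treated libraries in Huh-7. Its MHCC-97H values were 52, 51.6 and 52.8 TPM and 61, 64 and 61.6 TPM. In both lines every treated library lay above every control, which a gene named for its small p in each line is likely to show. Of all tested genes 3.79% did so in Huh-7 and 3.19% in MHCC-97H. The differences of IER2 were 0.24 (SE 0.0795, limma adjusted p = 0.929) and 0.25 (SE 0.0795, adjusted p = 1), which did not pass the test over all genes. MEF2C, a transcription factor that p38 phosphorylates, was listed at 2.58, 1.65 and 2.67 TPM and at 5.72, 3.24 and 3.22 TPM in Huh-7 (difference 0.60, adjusted p = 1).

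In MHCC-97H, the phosphatase gene DUSP4 stood at 6.58, 5.73 and 5.01 TPM in controls and at 4.41, 4.63 and 4.37 TPM in treated libraries (-0.30, limma adjusted p = 1). The stress-induced GADD45A stood at 23.1, 19.4 and 14.5 TPM and at 12.4, 16.2 and 13.1 TPM (-0.41, adjusted p = 1). For the difference of the responses the smallest p values after HSPB1 (-0.84) were those of MAP2K2 (0.27), the ERK activator MEK2, and GADD45B (-0.22), all with an adjusted p of 0.999.

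Between the lines with si-NC, limma called 40 of the 70 genes higher in MHCC-97H and 9 lower, beside 50.1% and 22.9% of all genes. After trimmed-mean scaling the counts were 29 and 22, beside 33.5% and 35.3%. The filter shaped these counts: 27 of the 97 genes did not enter, 16 entered through MHCC-97H alone and 3 through Huh-7 alone. Without a filter 46 of the 97 were higher and 13 lower, beside 24.6% and 13.5% of the 30267 genes then fitted. By role, the AP-1 and ATF partners had 10 of 10 tested genes higher and 0 lower, with a median of 1.21. FOS, FOSB and ELK4 averaged under 1 TPM in Huh-7 and entered through MHCC-97H, while BATF, another partner, stood at 1.52, 1.65 and 1.01 TPM in the Huh-7 controls, was listed at 0 in the MHCC-97H controls and did not enter. Without a filter the 12 partners had 10 higher and 1 lower, which was BATF (-1.25, SE 0.143, limma adjusted p = 5.12e-05; named after its values were seen). In the filtered fit there were 7 called higher and 0 lower after trimmed-mean scaling, quantile normalization or GC correction. FOSL1, a FOS-family partner of JUN, stood at 1.58, 1.19 and 1.11 TPM in Huh-7 and at 45.3, 39.6 and 41.4 TPM in MHCC-97H, a 32.5-fold ratio of means. ELK1, a transcription factor that JNK and ERK phosphorylate, stood at 8.67, 11 and 11 TPM and at 61.3, 73.2 and 78.1 TPM, 6.94-fold higher.

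The p38 effectors and targets had 7 higher and 2 lower of 10 tested, or 6 and 3 after trimmed-mean scaling. Of all tested genes 50.1% were called higher and 22.9% lower, or 33.5% and 35.3% after that scaling. Of the 10, 2 entered the fit through MHCC-97H, HSPB1 among them. RPS6KA4 (MSK2, a kinase activated by p38) stood at 26.6 to 28.1 TPM in Huh-7 and at 114 to 127 TPM in MHCC-97H. HSPB1, at 0 to 0.19 TPM in the Huh-7 controls, was listed at 481 to 527 TPM in the MHCC-97H controls. Upstream kinases and their partners had 7 higher and 1 lower of 14 tested, which became 5 and 4 after trimmed-mean scaling. The 7 of 14 called higher is near the 50.1% of all genes, and 3 of the 14, TAB1 among them, entered through MHCC-97H. MAP4K2, a kinase of the germinal-centre kinase family, was 3.52-fold higher in MHCC-97H, and TAB1, the partner of the kinase TAK1, was listed at 0.58, 0 and 0 TPM in Huh-7 and at 4.94, 5.52 and 4.36 TPM in MHCC-97H.

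Scaffold genes had 4 higher and 1 lower of 6 tested, 2 and 1 after trimmed-mean scaling, and 3 and 3 of 8 without a filter. Of all genes 50.1% were higher and 22.9% lower, 33.5% and 35.3% after that scaling, and 24.6% and 13.5% without a filter. Of the 6, FLNA and ARRB2 entered through MHCC-97H and 1 gene through Huh-7. FLNA, an actin cross-linker, stood at 0 to 0.1 TPM in Huh-7 and at 286 to 308 TPM in MHCC-97H. ARRB2, which holds JNK3 and its activators together, was listed at 0.02 to 0.38 TPM and at 23.2 to 27.6 TPM. The JNK and p38 phosphatases had 3 higher and 0 lower of 8, or 3 and 2 after trimmed-mean scaling. The 3 called higher on the deposited scale, DUSP1, DUSP2 and DUSP22, all entered through MHCC-97H, so the filter shaped this count. Without a filter 5 of 10 were higher and 0 lower. DUSP1 stood at 0.17 to 0.84 TPM in Huh-7 and 14.5 to 21.9 TPM in MHCC-97H, and DUSP2 at 0.35 to 0.83 TPM and 25.9 to 28 TPM. In the ERK arm 3 were higher and 1 lower of 10, which became 2 and 6 after trimmed-mean scaling. Of these 10, MAPK3 entered through MHCC-97H and 1 gene through Huh-7. MAPK3 was listed at 0 in the 3 Huh-7 si-NC libraries and at 49.7 to 51.2 TPM in MHCC-97H, and ARAF, a RAF kinase, was 4.99-fold higher there.

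Stress-induced and AP-1 target genes went both ways, with 6 higher and 3 lower of 11 tested, or 4 and 5 after trimmed-mean scaling. Of all genes 50.1% were higher and 22.9% lower, or 33.5% and 35.3% after that scaling. Of the 11, 2 entered through MHCC-97H, PLAUR among them, and GADD45G entered through Huh-7. PLAUR, the urokinase receptor, was listed at 0.42 to 0.77 TPM in Huh-7 and 24.6 to 27.6 TPM in MHCC-97H. GADD45G, an activator of the MAP3 kinase MEKK4, had 21, 15.9 and 17 TPM in Huh-7 and was listed at 0 in all MHCC-97H libraries. MAPK12, the only tested gene among the other JNK and p38 isoforms, was lower in MHCC-97H, with a difference of -0.44 (SE 0.091, limma adjusted p = 0.00109), and -1.08 after trimmed-mean scaling.

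**Figure D4:**
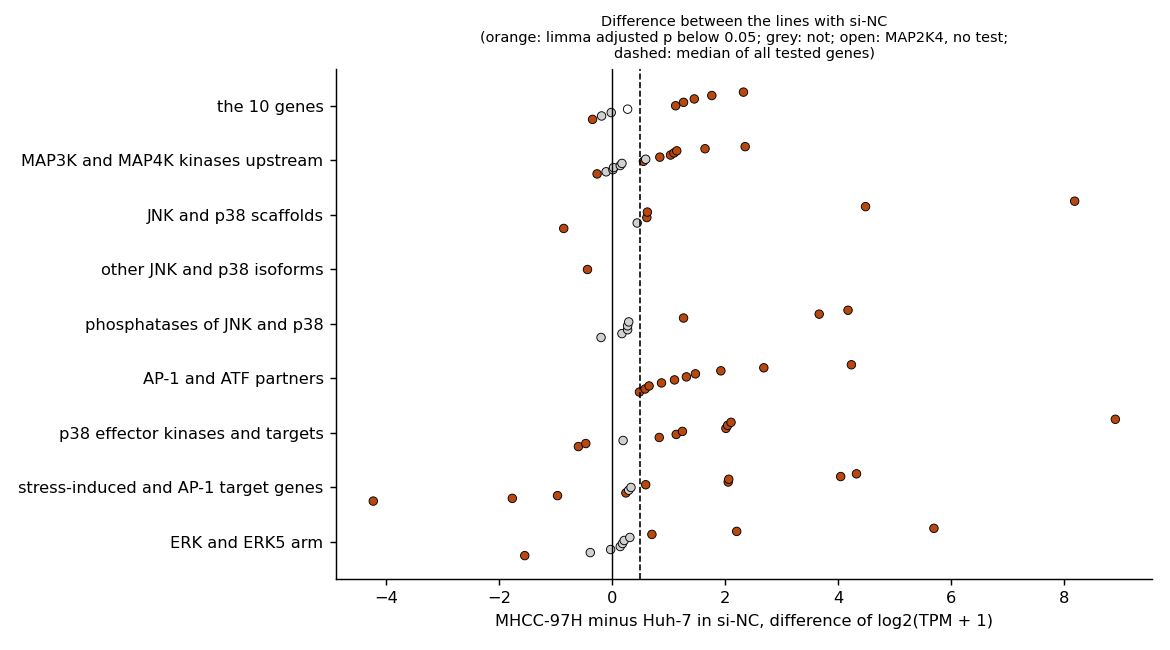
Difference between MHCC-97H and Huh-7 with si-NC in log2(TPM + 1) for the tested genes of the 10 and of each role group of the wider list (points; orange passed the limma test, grey did not, the open point is MAP2K4 without a test). The dashed line is the median of all tested genes at 0.49, and the 10 AP-1 and ATF partners drawn lie above 0 on this deposited scale; BATF, at -1.25 without a filter, is not drawn.

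The genes whose levels ran most like MAP2K4 over the 12 libraries, by Pearson's r of log2(TPM + 1), were KLF3-AS1 (0.86), NCBP2AS2 (0.85), PHF5A (0.85), CHD1 (0.84) and CRELD2 (0.83). These values describe libraries that share 4 groups, and MAP2K4 was chosen for its pattern over them. CHD1, a chromatin remodeller, stood at 1.14, 2.44 and 2.76 TPM in the Huh-7 controls and at 5.26, 3.51 and 4.34 TPM in treated Huh-7. PHF5A, a spliceosome subunit, stood at 18.1, 33.9 and 30.4 TPM and at 39.4, 68.9 and 66.6 TPM. For both genes the Huh-7 si-CENPU libraries lay above the Huh-7 controls, which their choice by likeness to MAP2K4 favours. Their ratio of means was smaller than the 6.91 of MAP2K4, itself one of the values that chose MAP2K4. In MHCC-97H, CHD1 averaged 2.13 TPM in controls and 1.61 TPM in treated libraries, and PHF5A 30.2 and 31.8 TPM. The most opposed were FASTK (-0.90), PTPN9 (-0.85) and NR1H3 (-0.82). NR1H3, an oxysterol-sensing nuclear receptor, was listed at 3.35, 7.2 and 7.52 TPM in the Huh-7 controls, 1.5, 1.24 and 1.41 TPM in treated Huh-7 and 11.1 to 15.8 TPM in MHCC-97H. Among the members, r with MAP2K4 ran from 0.60 for MAP2K7 to -0.64 for JUN.

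Transcript GC content was not used in the choice. Over the 10 genes, the mean TPM and the GC content of the longest transcript had a Spearman rho of 0.76, from MAPK8 with 37.5% GC to JUND with 69.7%. Over these and the wider list (107 genes) rho was 0.61, and over the 10970 tested genes with a GC value 0.33. The genes share the same 12 libraries and the library preparation, whose GC trend varied between libraries as given above, and the part of GC content in the order of levels was not tested. MAP2K4, with 41.8% GC, lay among the low-GC, low-level members.

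**Figure D5:**
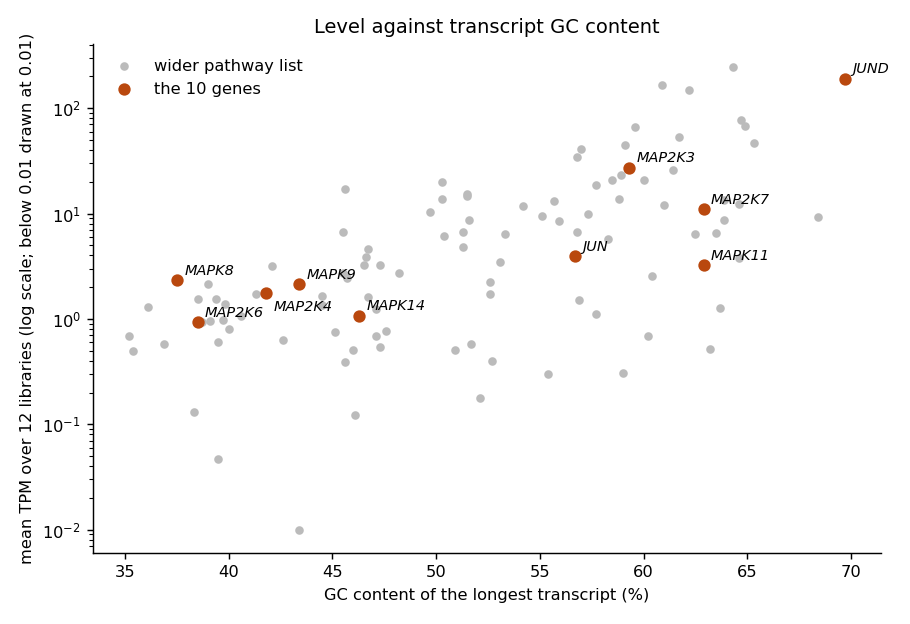
Mean TPM over the 12 libraries (log axis, values below 0.01 drawn at 0.01) against the GC content of the longest GENCODE transcript (percent) for the 10 genes (orange, named) and the wider list (grey). JUND lies highest at 69.7% GC, and MAP2K6, MAPK8, MAP2K4, MAPK9 and MAPK14, with 37.5% to 46.3% GC, lie between 0.931 and 2.32 TPM.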

How the data were processed

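The authors deposited 1 table of TPM, a column per library, made with HISAT2 and StringTie on GRCh38.p13, per the submitters' processing notes. Their versions, the annotation release and the strand setting were not given in the sources used here. Total RNA and an Illumina TruSeq kit were used, per the labels' protocols. TPM columns summed to 998416 to 999065 and keep no depth, so no counting interval is given. Symbols matched 60447 of 60664 identifiers; coordinates and GC content came from GENCODE 29.

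Genes averaging at least 1 TPM (11088) were put on log2(TPM + 1), which understates the change of low genes, and fitted over the 12 libraries with limma 3.58.1 in R 4.3.3 (1 mean per group, trended empirical Bayes). Two-sided p-values were Benjamini-Hochberg adjusted within each contrast: the si-CENPU response of each line (against si-NC), the difference of these responses (MHCC-97H minus Huh-7), and MHCC-97H minus Huh-7 with si-NC. The code was tested on simulated data.

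The members and lists were chosen with earlier results of these data known. Besides members, the text names per role group the tested genes, at most 2, with the smallest adjusted p between lines, over the wider list the 3 with the smallest p per response, and the 5 genes most and 3 least correlated with MAP2K4. Others, such as MAPK10, are named to complete a family. Alternatives were pseudocounts of 0.1 and 0.5, no filter or a mean of 5 TPM, trimmed-mean scaling, quantile normalization, GC correction, lines fitted alone, a replicate block, no trend, robust moderation, the line difference averaged over si-NC and si-CENPU, and each library left out.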

Additional observations from a re-analysis of the deposited data

How the results depend on the processing

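Counts of called genes were small for the responses and moved easily. In Huh-7, where 1 gene was called, there were 11 with a pseudocount of 0.1, 4 without a filter, 0 with a mean of at least 5 TPM, 3 each after trimmed-mean scaling, quantile normalization and GC correction, 0 with the line fitted alone, and 0 to 4 when a library was left out. In MHCC-97H, also with 1, there were 0 with a pseudocount of 0.1, 7 without a filter, 7 after quantile normalization, 9 after GC correction, 0 with the line fitted alone or without the trend, and 0 to 4 when a library was left out. For the difference of the responses, with 1, there were 0 with a pseudocount of 0.1 or 0.5, 6 without a filter, 0 with a mean of at least 5 TPM, 2 after trimmed-mean scaling, and 0 to 4 when a library was left out. The line difference had 8099 calls, 4405 of the 5615 genes with a mean of at least 5 TPM, and 7465 to 8213 when a library was left out. The 1 gene in the Huh-7 count and in that of the difference was MAP2K4, whose own values made the choice. No test of MAP2K4 is read from these counts. It averaged 1.78 TPM and so was not among the genes with a mean of at least 5 TPM. The cause of the other shifts was not tested. With the replicate number as a block (replicate block) the counts were 1 in Huh-7, 0 in MHCC-97H, 0 for the difference and 7940 between the lines. Deviations of same-numbered libraries correlated at -0.032, -0.091 and 0.028 in Huh-7 and at -0.033, -0.091 and 0.134 in MHCC-97H, so the numbers were not taken as pairs.

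Of 1149 values for 51 named results, 1108 were counted as the same, 23 changed sign, 7 moved, 6 lost a call and 5 gained one. The same means an unchanged direction and side of the threshold, except for MAP2K4, which has no test. The 7 that moved are all of MAP2K4, whose changes of sign are not among the 23. Its line difference of 0.27 became -0.02 after trimmed-mean scaling and -0.01 after quantile normalization. After GC correction it was -0.46, and averaged over si-NC and si-CENPU -0.78. No changed sign belonged to a call. For MAP2K3 in Huh-7 the response was -0.02 after trimmed-mean scaling, -0.01 after quantile normalization and -0.00 after GC correction. For MAPK14 in MHCC-97H it was 0.02, 0.03 and 0.07 under these, and its line difference was 0.11 averaged over si-NC and si-CENPU. With a library left out, the Huh-7 response ran from 0.03 to 0.27 for MAP2K7, -0.32 to -0.07 for MAPK9, -0.47 to -0.11 for MAPK14, -0.12 to 0.18 for MAP2K3, -0.18 to 0.35 for MAPK8, -1.0 to 0.00 for JUN and -0.23 to 0.02 for JUND. In MHCC-97H it ran from -0.44 to -0.15 for MAPK9, -0.21 to -0.09 for MAP2K3, 0.07 to 0.17 for MAPK11, -0.18 to -0.03 for JUND, -0.36 to 0.12 for MAPK8, -0.20 to 0.10 for MAPK14 and -0.04 to 0.26 for JUN, and the line difference of MAPK14 from -0.21 to 0.15. Unknown depth and values near or under 1 TPM limit MAP2K4, MAP2K6, the JNK genes, MAPK14 and JUN in Huh-7.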
